A study of Mus musculus with 57 samples.

Results

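The collagen genes are the 44 genes, of 56332 in the deposited expression table of mouse bone marrow, that have an Ensembl identifier and a symbol made of Col, a type number, the letter a and a chain number (Col1a1, for example). They were chosen by name alone, with no measured value. Of these, 11 encode fibrillar chains (types 1, 2, 3, 5, 11, 24 and 27) and 33 encode other chains: 9 network, 6 beaded-filament, 9 fibril-associated, 4 transmembrane and 2 multiplexin collagens, and 3 of other kinds. Each of the 44 genes stood under 1 identifier and had a count in at least 1 library.

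Male C57BL/6 mice, 8 weeks old, received either an antibody against PAPP-A or a control antibody for 4 weeks, and RNA was sequenced from sorted and unsorted marrow. PAPP-A (pregnancy-associated plasma protein A) is a secreted protease that cleaves binding proteins of insulin-like growth factor. The treated groups (labelled aPAPPA) were 4 libraries each of MSC, HSC, CLP, GMP and MEP and 6 of Myeloid cells. MSC stands for the mesenchymal stromal cell, HSC for the blood stem cell, CLP for the progenitor of lymphocytes, GMP for that of granulocytes and monocytes, and MEP for that of megakaryocytes and red cells. The control groups were 6 libraries of MSC, 3 of HSC, 4 each of CLP, GMP and MEP, 6 of Myeloid cells and 4 of unsorted marrow (WBM). All groups share strain, sex and age, and the labels name no altered allele. Each library came from a pool of mice whose number of animals is not given in the sources used here, and sort gates are not given either. A pool number marks the same mice across populations and never joins a treated with a control library. The labels also give a batch, A, B or C: aPAPPA MSC pool 8 and control MSC pools 3, 5 and 7 belong to batch A, and the other 6 MSC libraries to batch C.

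Collagens are the main structural proteins of the matrix around cells. In each chain glycine recurs in a repeat written Gly-X-Y, which lets chains wind into a helix. Fibrillar chains form the banded fibrils of bone, skin and cartilage, type IV chains form the sheet of basement membranes, and type VI chains form beaded filaments near cells. In marrow, type I collagen is best known as the bulk matrix made by osteoblasts and stromal cells of the bone lineage.

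The split into fibrillar and other chains is visible in the coding sequence. With a glycine codon (GGN) required at every 3 codons, the longest unbroken run in the annotated transcript was 216 to 344 triplets in the 11 fibrillar genes (median 338) and 23 to 113 triplets in the other 33 (median 45). Exons of exactly 54 coding bases made up 47.0% of the 649 fibrillar coding exons and 12.1% of the 1356 coding exons of the other genes. Gene by gene these shares overlapped, so the 54-base exon does not separate the classes. Among fibril-associated genes Col22a1 had 44.4% and Col9a2 and Col9a3 43.8% each, against 41.2% in fibrillar Col1a1. The exons below are printed to show the difference in glycine spacing, with every in-frame glycine codon in capitals. The first 4 are 54-base exons of Col1a1 (chr11:94939904-94939957, plus strand), Col1a2 (chr6:4515481-4515534, plus), Col3a1 (chr1:45325360-45325413, plus) and Col5a1 (chr2:27965251-27965304, plus), all in GRCm38, read from the reference genome.
Col1a1 coding exon 8: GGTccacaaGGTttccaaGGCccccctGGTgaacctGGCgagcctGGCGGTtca
Col1a2 coding exon 8: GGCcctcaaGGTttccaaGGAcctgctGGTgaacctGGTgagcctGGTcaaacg
Col3a1 coding exon 6: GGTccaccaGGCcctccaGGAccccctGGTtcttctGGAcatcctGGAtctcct
Col5a1 coding exon 15: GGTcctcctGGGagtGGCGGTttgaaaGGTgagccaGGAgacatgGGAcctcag
The other 3 are exons in which the glycine spacing breaks, from 2 type IV chains and a fibril-associated chain: Col4a1 (chr8:11244486-11244569, minus strand), Col4a2 (chr8:11409422-11409472, plus) and Col16a1 (chr4:130059310-130059354, plus).
Col4a1 coding exon 9: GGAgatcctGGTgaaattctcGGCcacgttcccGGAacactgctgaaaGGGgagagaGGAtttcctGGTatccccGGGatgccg
Col4a2 coding exon 14: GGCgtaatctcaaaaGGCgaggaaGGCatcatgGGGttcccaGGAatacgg
Col16a1 coding exon 17: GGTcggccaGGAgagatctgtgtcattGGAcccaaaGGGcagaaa
In the fibrillar exons glycine opens each triplet from end to end, and in the last 3 exons longer gaps stand between glycine codons. The fibrillar exons were picked for unbroken spacing and the last 3 for a break, so they illustrate the difference and do not test it.

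Col4a1 and Col4a2, whose products assemble into one type IV molecule, start head to head on opposite strands of chromosome 8. In the RefSeq promoter table (GRCm38.p6) their annotated starts overlap by 22 bases, shown in capitals within chr8:11312801-11312830, plus strand.
Shared start of Col4a1 and Col4a2: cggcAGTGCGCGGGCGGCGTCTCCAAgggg
Among neighbouring members, Col4a4 and Col4a3 (gap of 71 bases) and Col4a6 and Col4a5 (gap of 1308 bases) also lie head to head.

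Library totals ranged from 107412 to 125537299 counts, and 4 libraries had under 1000000: aPAPPA HSC pool 6, aPAPPA MSC pool 8, control MSC pool 7 and control CLP pool 5. Levels are CPM (counts scaled to a total of 1000000) on 1 scaling of all 57 libraries, and levels of different genes are compared only per kilobase (kb) of exon. The MSC libraries carried stromal markers: the 8 listed summed to 35650 to 68560 CPM in aPAPPA MSC and 26930 to 61500 CPM in control MSC. In these bulk samples, fewer cells of a type and less RNA per cell cannot be told apart.

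Among the populations profiled, most collagen genes had their highest mean level in MSC. Such levels do not give the share of all marrow collagen RNA that MSC hold. All 44 genes together took 0.936% to 2.53% of the counts in aPAPPA MSC libraries and 1.00% to 2.44% in control MSC libraries. The mean level was highest in MSC for 31 of 44 members among the aPAPPA groups and for 33 of 44 among the control groups. The same count was not made over all genes, so these counts have no background beside them. Only the control groups include WBM. Some of the 33 were near the floor in control MSC, such as Col4a4 at 0.557, Col6a6 at 0.700 and Col24a1 at 0.737 CPM. Per kb, the order in control MSC opened with Col1a1 at 853 ± 949 CPM per kb, Col1a2 at 600.2 ± 467 and Col6a1 at 218 ± 73.7 (SD, n = 6). Col4a1 followed at 85.1 ± 31.5 and Col6a2 at 76.0 ± 29.4 CPM per kb (SD, n = 6). The SD of Col1a1 and Col1a2 exceeded the gap between them, and so did those of Col4a1 and Col6a2. The length used is that of all annotated exons of a gene joined, and the order depends on it. It was 6563 bases for Col1a1, 12426 for Col1a2, 4380 for Col6a1 and 8326 for Col6a2.

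**Figure D1:**
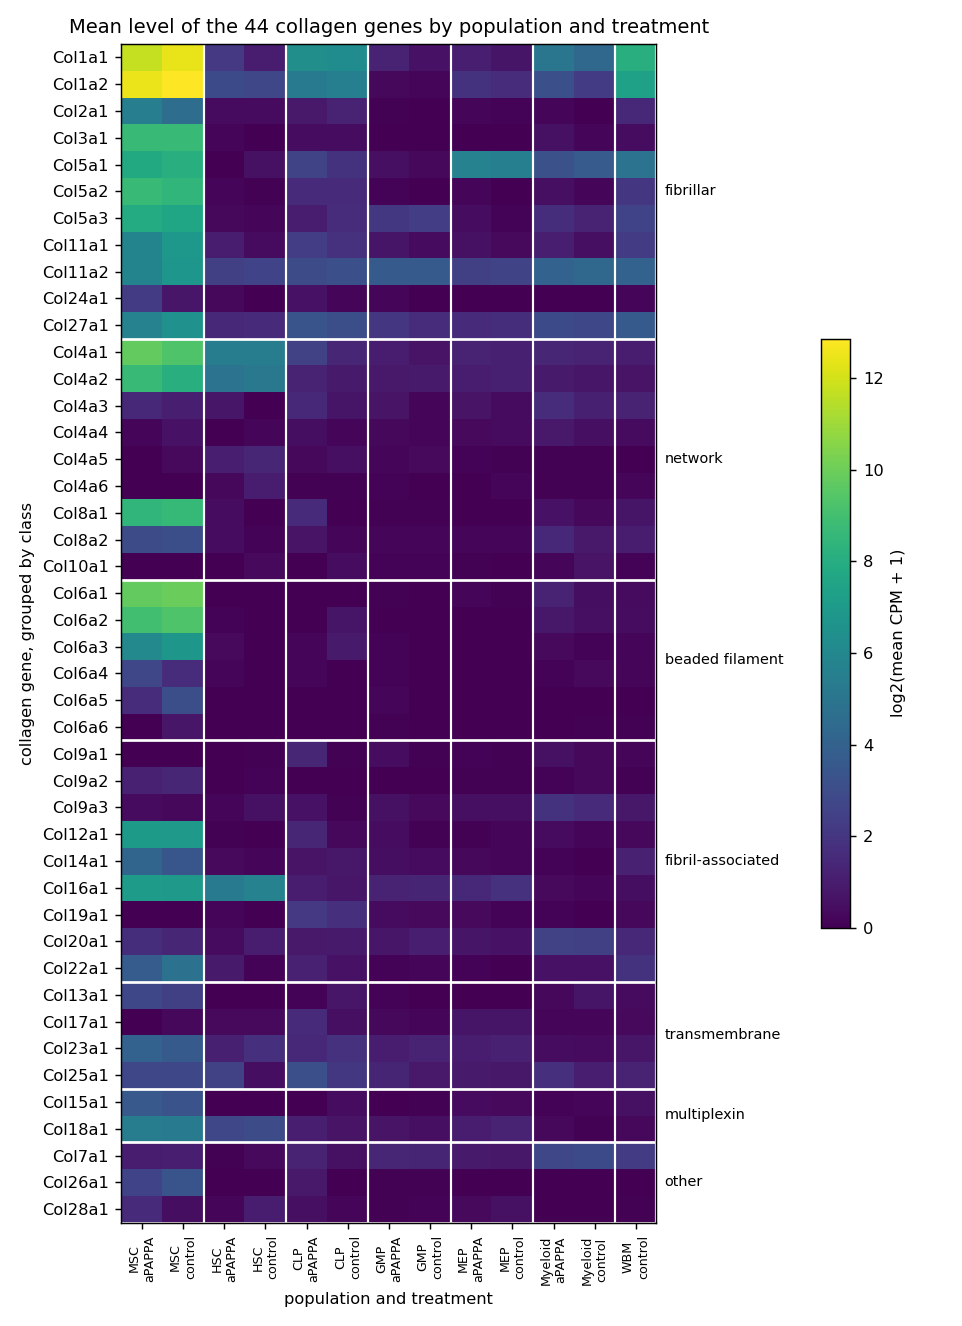
Mean level of the 44 collagen genes (down the page, grouped by class) in each population and treatment (across), as colour on a log2(mean CPM + 1) scale. The MSC columns are bright over most classes; Col4a1, Col4a2 and Col16a1 also stand out in HSC and Col5a1 in MEP.

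Among the fibrillar chains in MSC, the 2 chains of type I collagen were the most abundant per kb. Col1a1, the alpha-1 chain, had 8527, 2020, 1320 and 1604 CPM in aPAPPA MSC (pools 8, 16, 18 and 20), against a lowest value of 1648, a median of 3724 and a highest value of 18130 CPM in control MSC. Col1a2, the alpha-2 chain, had 10040, 5159, 4016 and 3917 CPM in aPAPPA MSC, against 3243, 6086 and 19010 CPM (lowest, median, highest) in control MSC. In each group the highest library of both genes was a shallow one of batch A (aPAPPA pool 8, 499300 counts in all; control pool 7, 321860), and the groups overlapped.

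Col3a1, the chain of type III collagen found with type I in soft tissues, had 234, 538, 401 and 431 CPM in aPAPPA MSC, against 239, 381 and 619.8 CPM (lowest, median, highest) in control MSC. Type V chains set the diameter of type I fibrils. Col5a1 had 138, 268, 257 and 229 CPM in aPAPPA MSC, against 218, 249.8 and 362 CPM in control MSC. Col5a2 had 394, 570.3, 337 and 297 CPM in aPAPPA MSC, against 212, 361 and 468 CPM in control MSC. For all 3 genes the groups overlapped, and Col5a1 was lowest in aPAPPA pool 8, below every control library. Col5a3, a further type V chain, had 115, 365, 251 and 234 CPM in aPAPPA MSC, against 52.0, 216 and 284 CPM in control MSC.

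The remaining fibrillar chains, among them those of cartilage, had lower levels per kb than the type I chains. Col11a1 had 141, 21.3, 37.8 and 19.2 CPM in aPAPPA MSC, against 37.5, 77.9 and 349 CPM (lowest, median, highest) in control MSC. Col11a2 had 138, 30.8, 18.4 and 29.0 CPM in aPAPPA MSC, against 27.4, 59.4 and 379.9 CPM in control MSC. Both chains, which with a type II chain form type XI collagen, were highest in the same 2 shallow libraries. Col2a1, the type II chain of cartilage, had 76.7, 36.4, 32.5 and 34.6 CPM in aPAPPA MSC, against 5.20, 16.5 and 50.7 CPM in control MSC. It was highest in shallow pool 8 of the aPAPPA libraries and lowest, on 1 count, in shallow pool 7 of the control libraries. Col27a1 had 19.2, 94.6, 50.4 and 41.7 CPM in aPAPPA MSC, against 15.6, 97.4 and 131 CPM in control MSC, and was lowest in both shallow libraries. Col24a1 was near the floor: 13.9, 0, 1.85 and 0 CPM in aPAPPA MSC, where the highest value rests on 8 counts, and at most 1.91 CPM in control MSC.

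Of the other classes, type VI and type IV chains led. Col6a1 had 683, 1235, 859 and 762 CPM in aPAPPA MSC, against 541, 1005 and 1280 CPM (lowest, median, highest) in control MSC. Col6a2 had 270.3, 677, 587 and 487 CPM in aPAPPA MSC, against 302, 667 and 933 CPM in control MSC. Col6a3 had 26.2, 91.1, 73.6 and 70.6 CPM in aPAPPA MSC, against 15.6, 122 and 165 CPM in control MSC. These 3 chains make up the common type VI molecule, and all 3 were lowest, in each group, in the shallow library of that group (aPAPPA pool 8, control pool 7). Col4a1 had 582, 1224, 881 and 777 CPM in aPAPPA MSC, against 379, 625.4 and 922 CPM in control MSC. Col4a2 had 272, 674, 369 and 292 CPM in aPAPPA MSC, against 143, 271 and 376 CPM in control MSC. Both type IV chains were highest in aPAPPA pool 16, above every control library, and the remaining treated libraries lay within the control range.

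Col8a1, a short-chain network collagen of blood vessel and corneal matrix, had 204, 427, 376 and 402 CPM in aPAPPA MSC, against 224, 355 and 624 CPM (lowest, median, highest) in control MSC. The fibril-associated chain Col12a1 had 34.9, 197, 156 and 119.8 CPM in aPAPPA MSC, against 78.1, 117 and 196 CPM in control MSC. Col16a1, also fibril-associated, had 33.1, 227, 135 and 131 CPM in aPAPPA MSC, against 41.6, 135 and 178 CPM in control MSC. The groups overlapped for each of these genes. Col18a1, a multiplexin whose end fragment is endostatin, had 43.6, 55.5, 39.0 and 25.3 CPM in aPAPPA MSC, against 5.20, 41.1 and 55.9 CPM in control MSC. Col22a1, fibril-associated at tissue junctions, had 24.4, 12.5, 2.30 and 10.7 CPM in aPAPPA MSC, against 13.4, 20.4 and 62.5 CPM in control MSC.

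**Figure D2:**
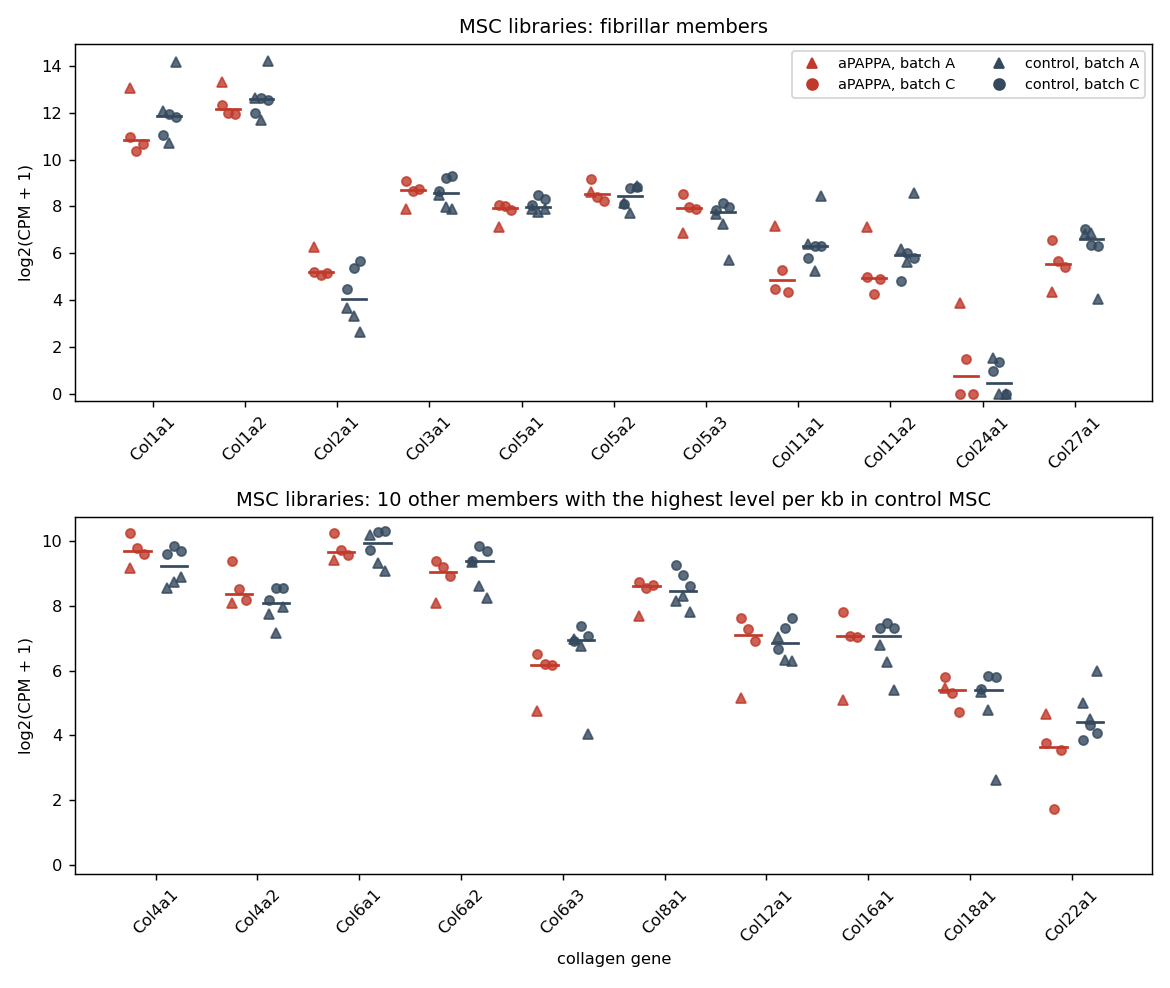
Level of the 11 fibrillar genes (top) and of 10 other collagen genes (bottom) in each MSC library, log2(CPM + 1); red aPAPPA, dark control, triangles batch A, circles batch C, bars the group medians. The highest Col1a1, Col1a2, Col11a1 and Col11a2 points of both groups are batch A libraries, and in batch C the red Col1a1, Col6a2 and Col6a3 points lie below the dark ones.

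Against unsorted control marrow, 30 of the 33 collagen genes tested were higher in control MSC and none was lower, by edgeR's quasi-likelihood test with Benjamini-Hochberg adjustment at 0.05. Over all 17169 genes tested, 49.2% were called, 23.1% higher and 26.1% lower in MSC. All 10 fibrillar members tested rose, with each call kept under every alternative run. All 5 beaded-filament members tested rose as well, but not all of their calls were kept. MSC and WBM share mouse pools 5, 7 and 15, and with pool as a replicate block 7 of the 30 calls were lost: Col13a1, Col14a1, Col15a1, Col25a1, Col6a4, Col8a2 and Col9a2. The beaded-filament Col6a4 was also lost with DESeq2, in batch A alone and without pool 3, 7, 17 or 19, and Col6a5 in batch A alone. The 3 not passing were Col7a1, Col4a3 and Col20a1, named after their values were seen. Over the 33 members the median log2 difference was 4.87, against -0.22 over all genes tested.

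The size of the gap ranged widely among the genes named, also among the fibrillar ones, and differences between genes were not tested. Col6a1 had 541, 1005 and 1280 CPM (lowest, median, highest) in control MSC, against 0.308, 0.0939, 0.427 and 0.414 CPM in WBM pools 1, 5, 7 and 15, a log2 difference of 11.46 (SE 0.56, edgeR adjusted p = 2.59e-09). Col3a1 had 239 to 619.8 CPM in control MSC, against 0.246, 0.125, 0.824 and 0.249 CPM in WBM, a log2 difference of 9.82 (SE 0.61, edgeR adjusted p = 1.5e-08). No MSC library of either gene came near a WBM library. Col1a1 had 1648 to 18130 CPM in control MSC, against 46.2, 69.6, 417 and 544 CPM in WBM, a log2 difference of 4.34 (SE 1.03, edgeR adjusted p = 0.005). Col1a2 had 3243 to 19010 CPM in control MSC, against 35.7, 61.0, 401 and 152 CPM in WBM, a log2 difference of 5.61 (SE 0.82, edgeR adjusted p = 9.57e-05). Col5a1 had 218 to 362 CPM in control MSC, against 33.7, 24.8, 43.3 and 15.5 CPM in WBM, a log2 difference of 3.25 (SE 0.34, edgeR adjusted p = 2.96e-06). The type I genes and Col5a1 were above 15 CPM in every WBM library, and Col3a1 and Col6a1 were under 1 CPM there. Bglap had 8.31, 12.3, 68.0 and 23.9 CPM in the same WBM pools, higher like Col1a1 and Col1a2 in pools 7 and 15; its part in their values was not tested. Col6a5 had no count in WBM, so no fold is given for it.

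Set against the mean of the other 5 sorted populations, control MSC were higher for 32 of 42 collagen genes tested and lower for none (edgeR, adjusted p under 0.05), where 48.8% of all 21384 genes tested were called, 28.7% higher and 20.1% lower. All 11 fibrillar and all 6 beaded-filament members rose in that fit. DESeq2 did not call Col24a1 (fibrillar), Col6a4 or Col6a6 (beaded filament). Col24a1 was also lost without pool 3, 15 or 17, Col6a4 without pool 3, and Col6a6 without pool 3, 9, 11, 13, 15, 17 or 19. In the aPAPPA libraries 24 of 31 tested were higher and none lower, against 29.0% of 18316 genes called, 15.6% higher and 13.5% lower. All 24 were among the 32 of the control libraries, or 75.0% of them. The 8 not called in aPAPPA libraries were Col13a1, Col25a1, Col26a1, Col6a4, Col6a5, Col6a6, Col8a2 and Col9a2. In the aPAPPA libraries DESeq2 did not call Col11a1, Col1a2 or Col24a1 of the 24, and Col24a1 was lost without pool 18. The 2 comparisons were tested separately, and their difference was not. Fitted differences were 10.85 for Col1a1 (SE 0.87), 7.63 for Col4a1 (SE 0.32), 6.91 for Col5a1 (SE 0.28) and 3.92 for Col11a2 (SE 0.31) on the log2 scale in control libraries. Of Col6a1, Col6a3 and Col3a1 a whole control group elsewhere had no count (Col6a1 in HSC, CLP and GMP; Col6a3 in HSC and GMP; Col3a1 in HSC), so no fold is given.

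Within MSC, no collagen gene passed the test between aPAPPA and control. Of 35 members tested with batch as a term, 0 were called by edgeR and 0 by DESeq2, where edgeR called 0.0313% of all 15984 genes (5 genes; 0.0125% higher and 0.0188% lower). At an unadjusted p under 0.05 there were 6 of 35 members, against 4.23% of all genes. The log2 difference was positive for 12 members and negative for 23, with a median of -0.29, against -0.03 over all genes tested. Among the fibrillar genes it was positive for 3 and negative for 8. Markers of blood cells were measured in the same libraries, and none passed the test. The difference was positive for 6 of 8 neutrophil markers (median 0.70, 3 with an unadjusted p under 0.05), 6 of 6 monocyte and macrophage markers (median 0.54), 6 of 6 erythroid markers (median 0.79) and 3 of 4 tested lymphoid progenitor markers (median 1.49). The neutrophil markers summed to 1827 to 10970 CPM in aPAPPA MSC and 1299 to 6615 CPM in control MSC, the monocyte and macrophage markers to 2615 to 3392 CPM in aPAPPA MSC and 1765 to 4033 CPM in control MSC, and the erythroid markers to 730 to 4513 CPM in aPAPPA MSC and 525 to 2498 CPM in control MSC. Other blood-cell lists lay closer: summed B and plasma cell markers had medians of 293 CPM in aPAPPA MSC and 291 CPM in control MSC. Medians were 18.8 and 18.1 CPM for megakaryocyte markers, and 84.8 and 75.35 CPM for stem cell markers, in the same order. Each of these lists was highest in a control library. Their part in the collagen values was not tested.

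The smallest p-values belonged to type VI and type V chains. Col6a3, with the library values above, had a log2 difference of -1.08 (SE 0.32, edgeR adjusted p = 0.825, with 0.01 to 1.0 over the alternative settings). Among the settings tried, it was called (as lower) when genes with low counts were kept in the fit. Col6a2 had a log2 difference of -0.60 (SE 0.20, edgeR adjusted p = 0.859) and Col5a1 one of -0.47 (SE 0.17, edgeR adjusted p = 0.96). The remaining 3 members under an unadjusted 0.05 were Col6a5 (-2.19), Col8a1 (-0.40) and Col27a1 (-1.04). The type IV chains had positive differences, 0.24 for Col4a1 (SE 0.17) and 0.35 for Col4a2 (SE 0.21), also short of the test (edgeR adjusted p = 0.999 for both). Col1a1 had a difference of -0.61 with an SE of 0.65 and Col1a2 one of -0.21 with an SE of 0.46; without control pool 7 that of Col1a2 was 0.12.

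**Figure D3:**
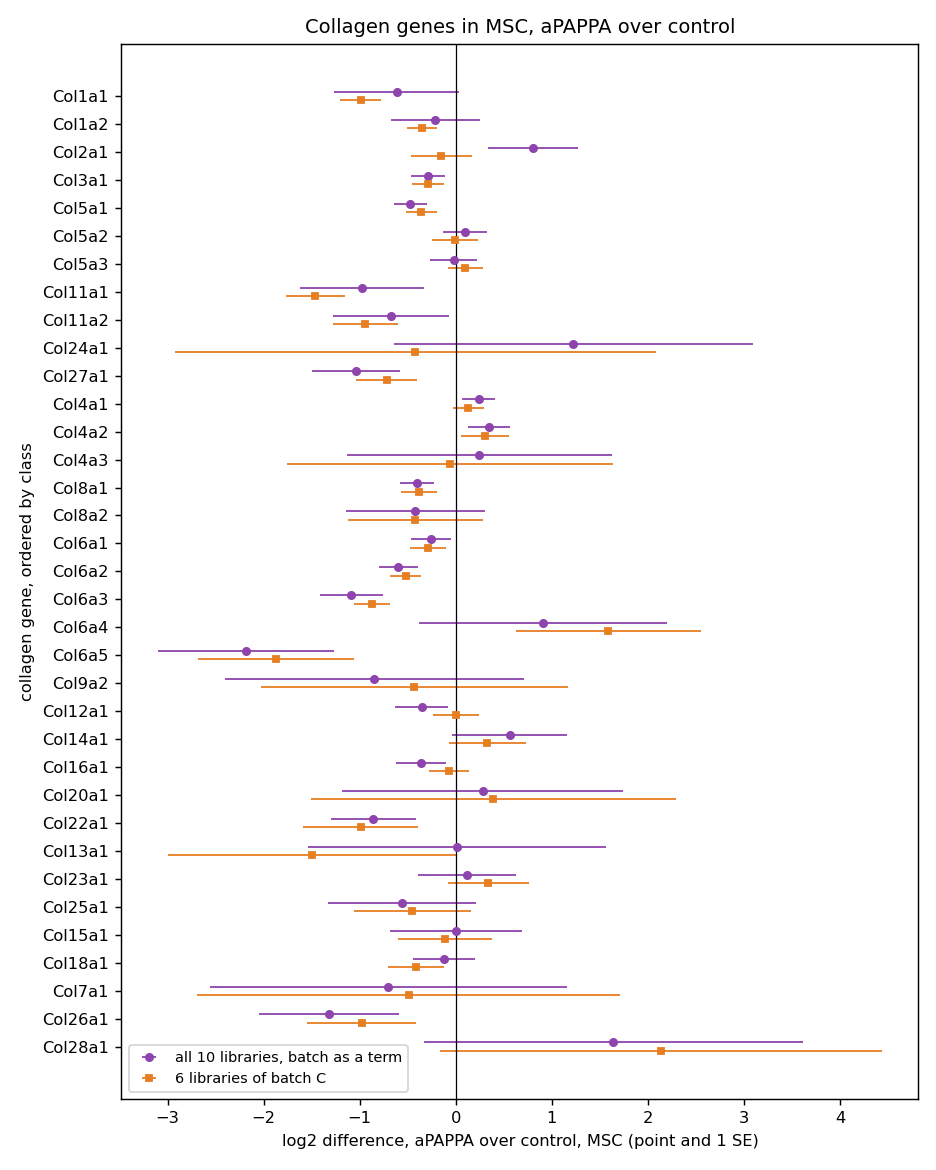
Log2 difference between aPAPPA and control MSC for each tested collagen gene, ordered by class; points are estimates, bars 1 SE, circles all 10 libraries with batch as a term and squares the 6 libraries of batch C. Most points lie left of 0, no gene passed the adjusted threshold in either fit, and Col1a1 is at -0.61 over all libraries and -0.99 in batch C.

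The 6 MSC libraries of batch C, 3 per treatment, each held over 1000000 counts. There Col1a1 had 2020, 1320 and 1604 CPM in aPAPPA MSC (pools 16, 18 and 20), against 2082, 3876 and 3572 CPM in control MSC (pools 15, 17 and 19). Every treated library was below every control library, with a log2 difference of -0.99 (SE 0.21, unadjusted p = 0.000618, edgeR adjusted p = 0.665). Col11a1 had 21.3, 37.8 and 19.2 CPM in aPAPPA MSC, against 55.4, 77.4 and 78.4 CPM in control MSC (log2 difference -1.46, SE 0.31, edgeR adjusted p = 0.665). Col6a3 had 91.1, 73.6 and 70.6 CPM in aPAPPA MSC, against 119, 165 and 133 CPM in control MSC. These 3 genes had no overlap between the groups and none of them passed the adjusted threshold. In all, 7 of 34 members had every treated library below every control library (Col1a1, Col11a1, Col22a1, Col26a1, Col6a2, Col6a3 and Col6a5) and 0 had every one above, against 5.03% below and 5.37% above among 15461 genes. With plain library totals Col5a1 joined the 7.

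Ratios within a library do not depend on its scaling. In batch C, Col1a1 had 0.329 to 0.41 counts per count of Col1a2 in aPAPPA MSC, against 0.522 to 0.612 in control MSC. Per count of Col3a1 it had 3.29 to 3.75 in aPAPPA MSC, against 5.12 to 6.47 in control MSC. Both ranges were apart, and an exact two-sided permutation test gave p = 0.10 for each, which is the smallest value 3 against 3 libraries allow. The ratio of Col1a2 to Col3a1 was 9.10 to 10.0 in aPAPPA MSC and 9.46 to 10.6 in control MSC (exact permutation p = 0.50). The 3 other ratios examined, Col4a1 to Col4a2, Col6a1 to Col6a2 and Col5a2 to Col5a1, had exact permutation p-values of 0.60, 0.20 and 0.40. In batch A the treated library, pool 8, lay within the control range for the ratios of Col1a1 to Col1a2 and to Col3a1. Its Col1a1 to Col1a2 ratio was 0.849, against 0.679, 0.508 and 0.954 in control pools 3, 5 and 7. Its Col1a1 to Col3a1 ratio was 36.5, against 12.0, 6.6 and 75.7 in the same control pools. A ratio shows unequal change and not which chain changed.

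In the same libraries, 8 listed markers of osteoblasts, the bone-forming cells, summed to 8614, 9744 and 9319 CPM in aPAPPA MSC of batch C, against 11230, 13350 and 10900 CPM in control MSC, with no overlap. Of these 8 osteoblast markers, 1, Ibsp, passed the test between aPAPPA and control MSC, as lower; the difference was negative for 6 and positive for 2 (median -0.75). Ibsp had 2429, 2577 and 2924 CPM in aPAPPA MSC of batch C, against 5262, 5618 and 5167 CPM in control MSC. Bglap, which encodes osteocalcin, had 45.8, 45.7 and 127 CPM in aPAPPA MSC of batch C, against 155, 348 and 194 CPM in control MSC. Dmp1, a marker of late osteoblasts and osteocytes, lay the other way, at 36.1, 39.1 and 51.0 CPM in aPAPPA MSC of batch C, against 17.0, 31.2 and 13.7 CPM in control MSC, with no overlap. The 8 markers summed to 6401 to 9744 CPM in aPAPPA MSC and to 5522 to 13350 CPM in control MSC over both batches, and none was at 0 in a whole group. Their part in the collagen values was not tested.

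The genes that fold, cut, join and bind collagen chains gave no call in MSC either (edgeR and the same 15984 genes). Of 19 folding and modification genes, 0 passed and 2 had an unadjusted p under 0.05; Colgalt1, which adds galactose to collagen, averaged 119.7 ± 19.8 CPM in aPAPPA MSC and 80.3 ± 18.3 CPM in control MSC (SD, n = 4 and 6; log2 difference 0.50, SE 0.20). Mia3, needed to export procollagen, averaged 108 ± 14.3 CPM in aPAPPA MSC and 135 ± 19.1 CPM in control MSC, and Colgalt2 0.291 ± 0.541 CPM in aPAPPA MSC and 2.04 ± 1.26 CPM in control MSC. Of 12 tested cleavage and cross-linking genes, 0 passed; Pcolce2, an enhancer of procollagen cleavage, had 28.7 ± 19.4 CPM in aPAPPA MSC and 8.74 ± 9.10 CPM in control MSC. Adamts14, an amino-end procollagen protease, averaged 49.3 ± 18.7 CPM in aPAPPA MSC and 70.3 ± 20.9 CPM in control MSC, and Pcolce 772 ± 184 CPM in aPAPPA MSC and 858 ± 316 CPM in control MSC. Of 9 tested collagen receptors, 0 passed; Mrc2, which takes up collagen for breakdown, had the smallest p (log2 difference -0.57, SE 0.19, edgeR adjusted p = 0.92). Itga1 averaged 117 ± 19.1 CPM in aPAPPA MSC and 94.3 ± 27.01 CPM in control MSC, and Ddr1 107 ± 38.6 CPM in aPAPPA MSC and 79.3 ± 16.2 CPM in control MSC.

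HSC expressed a small set of non-fibrillar collagens in every library. Against the mean of the other 5 sorted control populations, 6 collagen genes were higher in HSC and 8 lower by edgeR, where 18.0% of 21384 genes were called, 12.3% higher and 5.74% lower. The log2 difference was 4.57 for Col16a1 (SE 0.35), 4.20 for Col4a5 (SE 1.12), 3.69 for Col4a2 (SE 0.31), 3.38 for Col4a1 (SE 0.37) and 3.00 for Col18a1 (SE 0.44). The sixth was Col28a1, which had no count in control Myeloid cells, so no fold is given. Calls of Col16a1, Col4a1, Col4a2 and Col18a1 held on leaving out any pool; Col4a5 lost its call without pool 3 or pool 5, and Col28a1 without pool 1, 3, 5, 7 or 17. The total of 14 calls became 9 without pool 1, 8 without pool 3, 7 without pool 5 and 8 without pool 7.

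Col4a1 had 33.3, 29.5, 36.6 and 64.9 CPM in aPAPPA HSC, against 35.9, 46.5 and 40.9 CPM in control HSC. Col4a2 had 29.3, 22.0, 6.09 and 59.9 CPM in aPAPPA HSC, against 32.7, 44.4 and 28.2 CPM in control HSC. Col16a1 had 33.3, 33.3, 42.6 and 38.3 CPM in aPAPPA HSC, against 51.6, 64.5 and 36.7 CPM in control HSC. The groups overlapped for all 3 genes, and the lowest Col4a2 value, in aPAPPA pool 6, rests on 1 count. Between HSC and MSC the type IV chains were lower in HSC: Col4a1 averaged 41.1 CPM in control HSC and 635 CPM in control MSC. Beside these genes, 8 endothelial markers summed to 252 to 353 CPM in aPAPPA HSC and 308 to 352 CPM in control HSC; Cdh5, a defining endothelial gene, was at 0 to 0.381 CPM in aPAPPA HSC and 0 to 0.164 CPM in control HSC, and Stab2, of marrow sinusoids, at no more than 0.833 CPM in aPAPPA HSC and 0.634 CPM in control HSC. Other members of the list were higher: Emcn was at 12.2 to 22.4 CPM in aPAPPA HSC and 19.5 to 30.1 CPM in control HSC. Kdr was at 0 to 3.81 CPM in aPAPPA HSC and 3.26 to 3.735 CPM in control HSC. The part of the endothelial markers in the type IV values was not tested. None of the 8 was at 0 in a whole group, and Tek and Tie1, which HSC also express, made up most of the sum.

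Across treatment, 0 of 11 collagen genes tested in HSC were called by edgeR, and 0 by DESeq2 (0.00690% of 14494 genes by edgeR, 0.00% higher). Of the 11, 2 had an unadjusted p under 0.05, and the share of all genes under that threshold is not given here. Col1a1 had 4.02, 7.50, 0 and 2.00 CPM in aPAPPA HSC, against 0.543, 0.818 and 1.56 CPM in control HSC (log2 difference 2.17, SE 0.74, edgeR adjusted p = 0.61). Col25a1, a transmembrane collagen of neurons, had 1.72, 10.3, 6.09 and 0 CPM in aPAPPA HSC, against 0.272, 0.491 and 0.415 CPM in control HSC (log2 difference 3.41, SE 1.26, edgeR adjusted p = 0.61). It was called without aPAPPA pool 8, at 3.98 (edgeR adjusted p = 0.0201), and with low-count genes kept, at 3.37; the value of aPAPPA pool 6 rests on 1 count. Col16a1 had a log2 difference of -0.44 (SE 0.21, edgeR adjusted p = 0.629).

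MEP stood out for a single fibrillar chain. Col5a1 had 55.8, 30.7, 60.9 and 54.1 CPM in aPAPPA MEP, against 61.6, 37.4, 41.1 and 46.3 CPM in control MEP, so the treatments overlapped (log2 difference 0.11, SE 0.22, edgeR adjusted p = 0.999). In control libraries it was the 1 collagen gene higher in MEP than in the mean of the other 5 populations, with a log2 difference of 3.67 (SE 0.31, edgeR adjusted p = 4.68e-10), and 9 were lower, where 25.2% of 21384 genes were called, 15.1% higher and 10.1% lower. Col5a2, whose chain joins Col5a1 in the common type V molecule, had at most 0.249 CPM in aPAPPA MEP and 0.022 CPM in control MEP. Col5a1 thus stood without its usual partner there, while in MSC both were above 100 CPM. Counts of Col5a1 also exceeded those of Col5a2 in WBM, at 4.55 to 36.5 per count of Col5a2. In aPAPPA Myeloid libraries with at least 10 counts of both genes this ratio was 2.17 to 42.4. The imbalance was therefore not particular to MEP. Without pool 3 the 10 calls became 5, with Col5a1 among them. Col11a2 had 4.87, 5.50, 3.24 and 4.35 CPM in aPAPPA MEP, against 5.01, 5.13, 4.63 and 5.83 CPM in control MEP. Between treatments 0 of 9 collagen genes were called in MEP by edgeR, 0 by DESeq2, and 0 had an unadjusted p under 0.05 (0.00% of 13307 genes called); the smallest p-values were those of Col18a1 (-0.48, SE 0.39), Col16a1 (-0.55, SE 0.49) and Col1a2 (0.37, SE 0.38). The Col1a2 difference was -0.14 without aPAPPA pool 4.

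**Figure D4:**
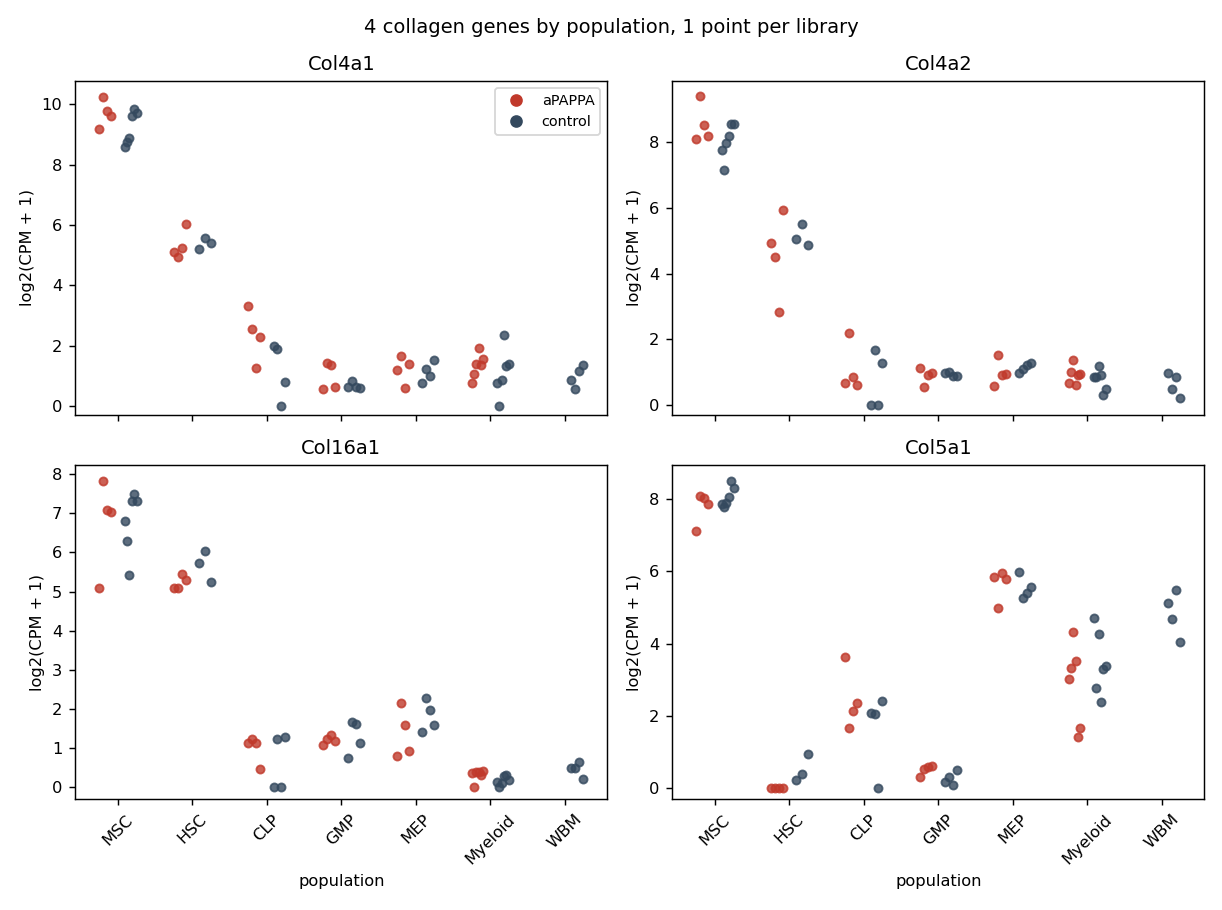
Level of Col4a1, Col4a2, Col16a1 and Col5a1 in every library by population, log2(CPM + 1); red aPAPPA, dark control. After MSC, the first 3 genes are highest in HSC, and the mean of Col5a1 is highest in MEP and then WBM; the treatments overlap in HSC and MEP.

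In CLP the type I chains were carried by 1 library of each treatment. Col1a1 had 322, 1.18, 0.399 and 0.902 CPM in aPAPPA CLP (pools 2, 4, 6 and 8), against 292, 2.59, 2.77 and 0 CPM in control CLP (pools 1, 3, 5 and 7). Col1a2 had 151, 0.454, 0.200 and 0.258 CPM in aPAPPA CLP, against 182, 0.479, 0 and 0 CPM in control CLP. Both genes were high in aPAPPA pool 2 and control pool 1 and near the floor in the other 6 libraries. Bglap was at 53.4 CPM in aPAPPA pool 2 and 114 CPM in control pool 1 and had no count in the other 6, and the 8 osteoblast markers summed to 76.9 to 349 CPM in aPAPPA CLP and 65.1 to 435 CPM in control CLP, highest in the same 2 libraries. Col3a1, at 1.41 CPM in aPAPPA pool 2 and 1.36 CPM in control pool 1, had no count in the other 6. The part of osteoblast RNA in these values was not tested.

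Against the other control populations, 4 collagen genes were higher in CLP (Col19a1, Col2a1, Col1a1 and Col25a1) and 3 lower (Col16a1, Col4a2 and Col4a1) by edgeR, where 12.6% of 21384 genes were called, 7.43% higher and 5.20% lower. Without control CLP pool 1, 0 were higher and 2 lower, and the Col1a1 difference was -2.07 in place of 2.92. With pool as a replicate block, the calls of Col1a1, Col25a1 and Col2a1 were lost. Col27a1 was even across CLP, with 12.1, 8.53, 9.58 and 6.44 CPM in aPAPPA CLP, against 8.16, 6.13, 6.92 and 8.57 CPM in control CLP. Between treatments 0 of 7 collagen genes were called in CLP by edgeR, 0 by DESeq2, and 0 had an unadjusted p under 0.05 (0.00% of 12520 genes called). The smallest p-values were those of Col4a1 (1.34, SE 0.82), Col5a1 (0.92, SE 0.80) and Col25a1 (1.45, SE 1.39, and -1.40 without aPAPPA pool 2).

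**Figure D5:**
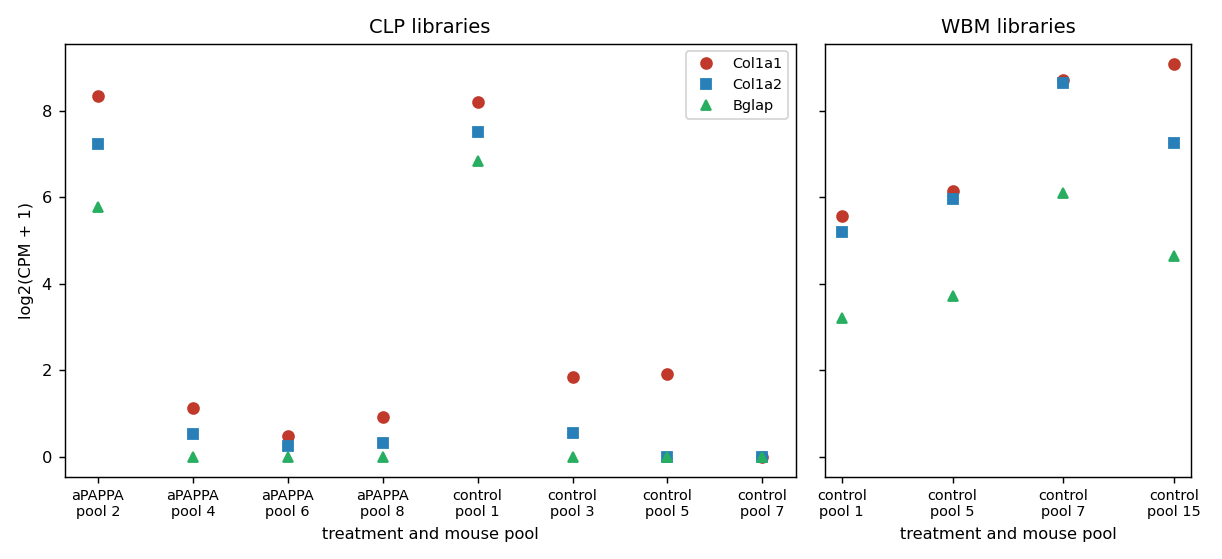
Level of Col1a1, Col1a2 and the osteoblast gene Bglap in each CLP library (left) and WBM library (right), log2(CPM + 1), by treatment and mouse pool. All 3 are high in aPAPPA pool 2 and control pool 1 of CLP and near 0 in the other 6, and in WBM both collagen genes are higher in pools 7 and 15 than in pools 1 and 5.

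GMP and Myeloid libraries held little collagen RNA. In GMP, Col11a2 had 15.5, 9.41, 10.7 and 9.74 CPM in aPAPPA libraries, against 11.9, 11.4, 8.76 and 14.2 CPM in control libraries. Col5a3 had 3.97, 1.82, 3.48 and 3.92 CPM in aPAPPA GMP, against 5.48, 3.21, 2.89 and 4.45 CPM in control GMP. Against the other control populations, 2 collagen genes were higher in GMP (Col5a3, log2 difference 1.84, and Col19a1, with no fold because control MSC and HSC had no count of it) and 10 lower by edgeR, where 19.4% of 21384 genes were called, 12.1% higher and 7.24% lower. Col19a1 rests on 2 to 7 counts a library and lost its call on leaving out any pool, and the 12 calls became 6 without pool 3 or pool 5. Between treatments 0 of 12 were called in GMP by edgeR, 0 by DESeq2, and 0 had an unadjusted p under 0.05 (0.00% of 15334 genes called), with the smallest p-values for Col1a1 (1.39, SE 0.76), Col4a1 (0.87, SE 0.52) and Col27a1 (0.61, SE 0.40).

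Myeloid libraries split by batch. In batch B, Col1a1 had 12.4, 24.3 and 14.4 CPM in aPAPPA Myeloid cells (pools 10, 12 and 14), against 14.2, 22.8 and 13.7 CPM in control Myeloid cells (pools 9, 11 and 13). In batch C it had 59.3, 34.4 and 44.8 CPM in aPAPPA Myeloid cells, against 32.3, 15.5 and 19.5 CPM in control Myeloid cells. The treated libraries were above all control libraries in batch C and overlapped with them in batch B, and over both batches the log2 difference was 0.53 (SE 0.31, edgeR adjusted p = 0.995). The 8 stromal markers summed to 113 to 172 CPM in aPAPPA and 13.9 to 90.8 CPM in control Myeloid libraries of batch C, and to 0.669 to 3.69 CPM in aPAPPA and 1.09 to 1.94 CPM in control libraries of batch B; their part in the Col1a1 values was not tested. Col6a1 was at 3.25, 1.78 and 3.09 CPM in aPAPPA and 1.54, 0.160 and 0.749 CPM in control libraries of batch C, and at no more than 0.174 CPM in batch B.

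Col11a2 also differed by batch. In batch B it had 18.2, 29.96 and 31.5 CPM in aPAPPA Myeloid cells, against 32.5, 18.1 and 34.7 CPM in control Myeloid cells. In batch C it had 3.25, 4.60 and 6.27 CPM in aPAPPA Myeloid cells, against 10.5, 11.0 and 11.4 CPM in control Myeloid cells. All 3 treated libraries of batch C were below the control ones, and over both batches the log2 difference was -0.60 (SE 0.29, edgeR adjusted p = 0.995). Col5a1 had 1.70, 8.03 and 19.0 CPM (lowest, median, highest) in aPAPPA Myeloid cells, against 4.26, 9.07 and 25.1 CPM in control Myeloid cells. Between treatments 0 of 19 collagen genes were called by edgeR and 0 by DESeq2 (0.00% of 16803 genes called by edgeR). Of the 19, 1, Col5a2, had an unadjusted p under 0.05, and the share of all genes under that threshold is not given here. Its log2 difference was 2.97 (SE 1.31), with levels up to 1.00 CPM in aPAPPA and 0.441 CPM in control Myeloid cells. Col11a1 had a log2 difference of 1.87 (SE 1.06). Against the other control populations, 1 collagen gene was called higher in Myeloid cells (Col6a1) and 9 lower by edgeR, where 34.2% of 21384 genes were called, 14.2% higher and 19.9% lower. No fold is given for Col6a1, since 3 of the 5 groups behind that mean had no count; its level was at most 1.54 CPM in control Myeloid cells, against 541 to 1280 CPM in control MSC, another of the 5. The Col6a1 call was lost with pool as a replicate block, with DESeq2 and without pool 1, 3, 5, 7, 15 or 19.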

How the data were processed

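RNA of 57 libraries was sequenced after Qiagen RNeasy extraction and a NEBNext Ultra II Directional library kit, per the labels' protocols. The authors deposited expected counts (estimated counts from Salmon, whole numbers here) for 56332 genes in 1 long table, and the submitters' processing notes name FastQC 0.11.5, Salmon and mm10. No source read here states which release of Salmon or of the gene annotation was used. Of these genes 8620 carry a UCSC identifier, and 18072 stand on more than 1 line with the same value in every library, so 1 line per gene and library was used.

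Tests used edgeR 4.0.16 (R 4.3.3; filterByExpr, TMM scaling, robust quasi-likelihood fit) over all genes, with Benjamini-Hochberg adjusted p under 0.05 as a call, batch as a term where a comparison spans batches, and SE from the estimate and its F. Depth sets precision: 4 libraries held under 1000000 counts. CPM use 1 TMM scaling of all libraries; exon lengths are from GENCODE M21 (GRCm38). Where nothing says pools are separate, p-values measure the spread between these libraries. Named genes are the 11 fibrillar members, the 10 other members highest per kb in control MSC, the 3 highest in each other population, every member called, and the 3 with the smallest p in each treatment comparison; others were named after their values were seen. The members and lists were chosen with earlier results of these data known. The fits were tested on simulated data.

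Alternatives were relative log expression (RLE) scaling, DESeq2 1.42.0, Ensembl genes only, no filter on low counts, no batch term, shallow libraries left out, batches alone, each pool left out and pool as a replicate block; leaving out CLP pool 1, or CLP pools 1 and 2, was chosen after seeing the data. That pool numbers mark the same mice across populations is taken from the labels. Over 8619 genes, deviations of 82 same-pool pairs had a median correlation of 0.0974 (-0.576 to 0.592). For 237 other pairs the median was -0.0171 (-0.609 to 0.659). The ranges overlap, so the correlations do not show which libraries share mice.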

Additional observations from a re-analysis of the deposited data

Results flagged for a closer look

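The levels of single genes in single groups of 4 to 10 libraries were searched, 92 gene and group pairs in all. In 16 of the 92 pairs, 1 library stood far from the rest of its group. All 16 came from the few libraries named below. Genes of 1 library are not independent, so the 16 were not compared with a chance rate. In aPAPPA MSC the library apart was pool 8, with 8527 CPM of Col1a1 (the others 1320 to 2020), 141.2 CPM of Col11a1, 137.8 CPM of Col11a2, 76.72 CPM of Col2a1 and 13.95 CPM of Col24a1. In control MSC it was pool 7, with 18130 CPM of Col1a1 (the others 1648 to 4283), 19010 CPM of Col1a2, 348.7 CPM of Col11a1, 379.9 CPM of Col11a2 and 62.45 CPM of Col22a1. Both are batch A libraries of under 1000000 counts. In CLP, aPAPPA pool 2 stood apart with 322.5 CPM of Col1a1, 150.6 CPM of Col1a2 and 27.11 CPM of Col25a1, and control pool 1 with 292.1 CPM of Col1a1 and 182 CPM of Col1a2. Control GMP pool 3 had 0.7827 CPM of Col4a1, where the others had 0.519 to 0.548.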

How the results depend on the processing

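With genes of low count kept, 1 collagen gene was called between aPAPPA and control in MSC (Col6a3, lower) and 1 in HSC (Col25a1, higher), and the calls of control HSC against the other populations became 9 in place of 14. DESeq2 gave 16 calls in place of 10 for control MEP, and the fit with no batch term 18 in place of 10 for control Myeloid cells, where the Col27a1 difference was 0.02 in place of -1.69. Leaving out 1 pool at a time gave 0 to 1 calls between treatments in HSC, 7 to 13 for control HSC, 2 to 6 for control CLP (7 with all pools; 2 without CLP pool 1), 6 to 12 for GMP and 5 to 11 for MEP. It also gave differences of -0.35 to 0.12 for Col1a2 in MSC and -0.14 to 0.57 for Col1a2 in MEP between treatments, -1.40 to 2.08 for Col25a1 in CLP between treatments, and -2.33 to 3.96 for Col1a1 in control CLP against the others (-2.07 without CLP pool 1 alone). The causes were not tested. With pool as a replicate block, the pairing by mice, the calls were 24 for control MSC against WBM, 33 for control MSC, 11 for HSC, 5 for CLP, 10 for GMP, 11 for MEP, 8 for Myeloid cells and 24 for aPAPPA MSC. Treated and control libraries share no pool, so no block applies between treatments. RLE scaling moved the median log2 difference of all genes by over 0.1 in the control CLP, GMP, MEP and Myeloid and aPAPPA MSC comparisons, with the collagen counts within 1.5 times. aPAPPA MSC against the others could not be fitted without pool 8 or the shallow libraries. Genes of few counts in shallow libraries are not resolved at this depth.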
